A study of Homo sapiens with 9 samples.

Results

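The mitochondrial ribosomal protein (MRP) genes on the array were the 77 genes whose symbol in the platform annotation is MRPL or MRPS followed by a number, with pseudogenes left out, of 16577 genes with a symbol. They were represented by 92 of 22177 probes. Of the 77, 49 carry MRPL symbols (named for the large subunit) and 28 carry MRPS symbols (named for the small subunit). By the known relationships of the proteins, 46 have kin in bacterial ribosomes, 30 are found in mitochondrial ribosomes but not in bacterial ones, and 1, MRPS28, was not classed. Every member was detected above background on 9 of 9 arrays.

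The arrays measured total RNA of 3 human leukaemia lines, NB4, K562 and U937, with 1 array for each line under each of 3 conditions: no inhibitor, 5 µM MS-275 for 6 h and 5 µM SAHA for 6 h. NB4 is a promyelocytic line and U937 a monocytic one, while K562, which the labels count among AML lines, was grown from a blast crisis of chronic myeloid leukaemia. SAHA (vorinostat), a hydroxamic acid, inhibits several zinc-dependent histone deacetylases, and MS-275 (entinostat), a benzamide, acts mainly on those of class I. The labels do not say whether the cells without inhibitor received the solvent, DMSO, so an effect of the solvent and one of an inhibitor cannot be told apart.

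Mitochondrial ribosomes translate the few proteins that mitochondrial DNA encodes, all of them core subunits of the respiratory chain and of ATP synthase. Their RNAs are encoded in mitochondrial DNA, while all of their proteins are encoded in the nucleus, made in the cytosol and imported. Promoters of many nuclear genes for mitochondrial proteins are known to hold sites for NRF1, for ETS-family factors such as GABPA and for YY1. Leukaemia cells are known to depend on mitochondrial translation, and drugs that block it slow their growth.

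Of the 77 members, 69 matched a promoter in the RefSeq table (GRCh38.p14), given as 250 bases before to 50 bases after the gene's start. The ETS letters CCGGAAG were found, on either strand, in the window of 28 of the 69 members (40.6%), against 18.2% of the windows of the genes tested here and 10.6% of all 27305 windows. The YY1 letters AAGATGGCG stood in 13 members (18.8%), against 3.74% of tested genes and 1.81% of all windows. The NRF1 letters GCATGCGC stood in 6 members (8.70%, against 5.26% and 3.21%) and the E-box CACGTG in 9 (13.0%, against 9.83% and 7.28%). The YY1 letters begin with the 3 letters that end the ETS motif, so that 1 stretch can hold both, and 4 members held both motifs. A match is a description of the letters and does not show that a factor binds. Windows of 4 members are shown because their results below differ. MRPL27 had the largest fall with SAHA, MRPS30 had the largest fall with MS-275, MRPL12 fell with SAHA by more than 2-fold, and MRPL55 moved in opposite directions with the inhibitors. In capitals are the ETS motif in MRPL27, at positions −52 to −46 and −8 to −2 from the gene's start, and the YY1 motif in MRPS30, at positions 13 to 21. The MRPL12 and MRPL55 windows hold none of the 4 motifs. MRPL27 lies at chr17:50373135-50373434 (minus strand), MRPS30 at chr5:44808697-44808996 (plus strand), MRPL12 at chr17:81703117-81703416 (plus strand) and MRPL55 at chr1:228109250-228109549 (minus strand).
MRPL27: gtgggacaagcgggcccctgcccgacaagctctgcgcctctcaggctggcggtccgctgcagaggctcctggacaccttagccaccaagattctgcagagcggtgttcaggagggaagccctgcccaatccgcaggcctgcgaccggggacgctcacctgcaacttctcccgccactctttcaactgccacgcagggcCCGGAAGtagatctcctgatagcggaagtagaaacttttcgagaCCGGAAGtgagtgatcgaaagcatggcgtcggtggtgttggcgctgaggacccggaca
MRPS30: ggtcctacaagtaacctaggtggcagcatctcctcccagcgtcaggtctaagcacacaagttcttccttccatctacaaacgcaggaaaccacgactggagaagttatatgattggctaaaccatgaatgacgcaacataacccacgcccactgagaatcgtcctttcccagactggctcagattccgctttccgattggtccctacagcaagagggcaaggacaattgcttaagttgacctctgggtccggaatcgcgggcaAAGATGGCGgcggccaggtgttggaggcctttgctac
MRPL12: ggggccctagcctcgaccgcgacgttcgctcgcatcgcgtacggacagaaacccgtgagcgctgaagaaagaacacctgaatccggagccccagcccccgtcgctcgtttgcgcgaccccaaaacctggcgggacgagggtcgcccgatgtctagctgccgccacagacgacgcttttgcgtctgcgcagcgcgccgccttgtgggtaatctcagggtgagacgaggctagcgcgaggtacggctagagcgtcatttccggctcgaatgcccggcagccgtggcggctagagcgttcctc
MRPL55: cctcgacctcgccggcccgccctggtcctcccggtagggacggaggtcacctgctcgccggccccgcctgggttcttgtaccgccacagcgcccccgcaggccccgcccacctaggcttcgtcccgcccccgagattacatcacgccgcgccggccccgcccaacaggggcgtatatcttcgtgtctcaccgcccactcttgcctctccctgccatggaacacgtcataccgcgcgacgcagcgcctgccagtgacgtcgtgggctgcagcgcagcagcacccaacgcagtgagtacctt

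The arrays detected 11826 to 12705 probes each (53.3 to 57.3%), and their number limits the precision: the standard error (SE) of a member's log2 change ranged from 0.11 to 0.23. limma was fitted with terms for treatment and line, so that each line served as its own control. A gene counted as changed at a Benjamini-Hochberg adjusted p under 0.05 over all 11228 genes tested. Replicates were different lines, so the p-values refer to changes shared by these 3 lines. Levels are log2 intensities after background correction and quantile normalization, and because probes differ in brightness they are compared between arrays and not between genes. K562 arrays carried the embryonic and fetal globin transcripts of that line (HBG1 at a mean of 14.96, against 4.78 in NB4 and 5.64 in U937). MPO, a promyelocyte granule enzyme, was at 14.82 in NB4 and detected on 0 arrays of the other lines. ELANE, fixed as a marker of NB4, was instead near background there (5.56) and high in U937 (14.67). PRTN3, AZU1 and CTSG, fixed for NB4 as well, were detected on all arrays of both lines and were higher in U937. Of the markers fixed for U937, LYZ (13.17), CD4 (8.94) and CSF1R (9.12, against 8.59 in NB4) were highest in that line. CD86 was higher in NB4 (7.64) than in U937 (6.86). CD14, a marker of mature monocytes, was near background in U937 (5.55), and FCGR1A had no probe.

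With SAHA many mitochondrial ribosomal protein transcripts were moderately lower, in genes of both subunits. Among the 77 members 27 fell (35.1%) and 1 rose, where 11.8% of all genes tested fell and 12% rose. The members' median log2 change was −0.36, against −0.01 for all genes. In a whole culture, fewer cells with the transcript and less of it in each cell cannot be told apart. By sign alone, 50 members were lower with SAHA in all 3 lines and 8 were higher in all 3, where 29% and 28.4% of all genes were. The median over members was −0.38 in NB4, −0.29 in K562 and −0.38 in U937, and 58, 63 and 59 members respectively were below 0. The members that fell did so by 1.38- to 2.63-fold (adjusted p from 0.00178 to 0.0383), 7 of them by at least 2-fold. On 18 members all SAHA arrays lay below all untreated arrays, and on 0 all lay above, where the shares over all genes were 8.5% and 7.52%. Among the 7736 genes detected on every array, as all members were, 33 members fell (42.9%) against 18.2% of genes. Leaving out a line, which leaves 2 lines, gave 18 falls where K562 was dropped, 11 where NB4 was and 10 where U937 was. The shares of all genes that fell in these fits were 7.43%, 4.29% and 4.66%, in that order. No member rose in them, where 409 to 845 of 11228 genes did.

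**Figure D1:**
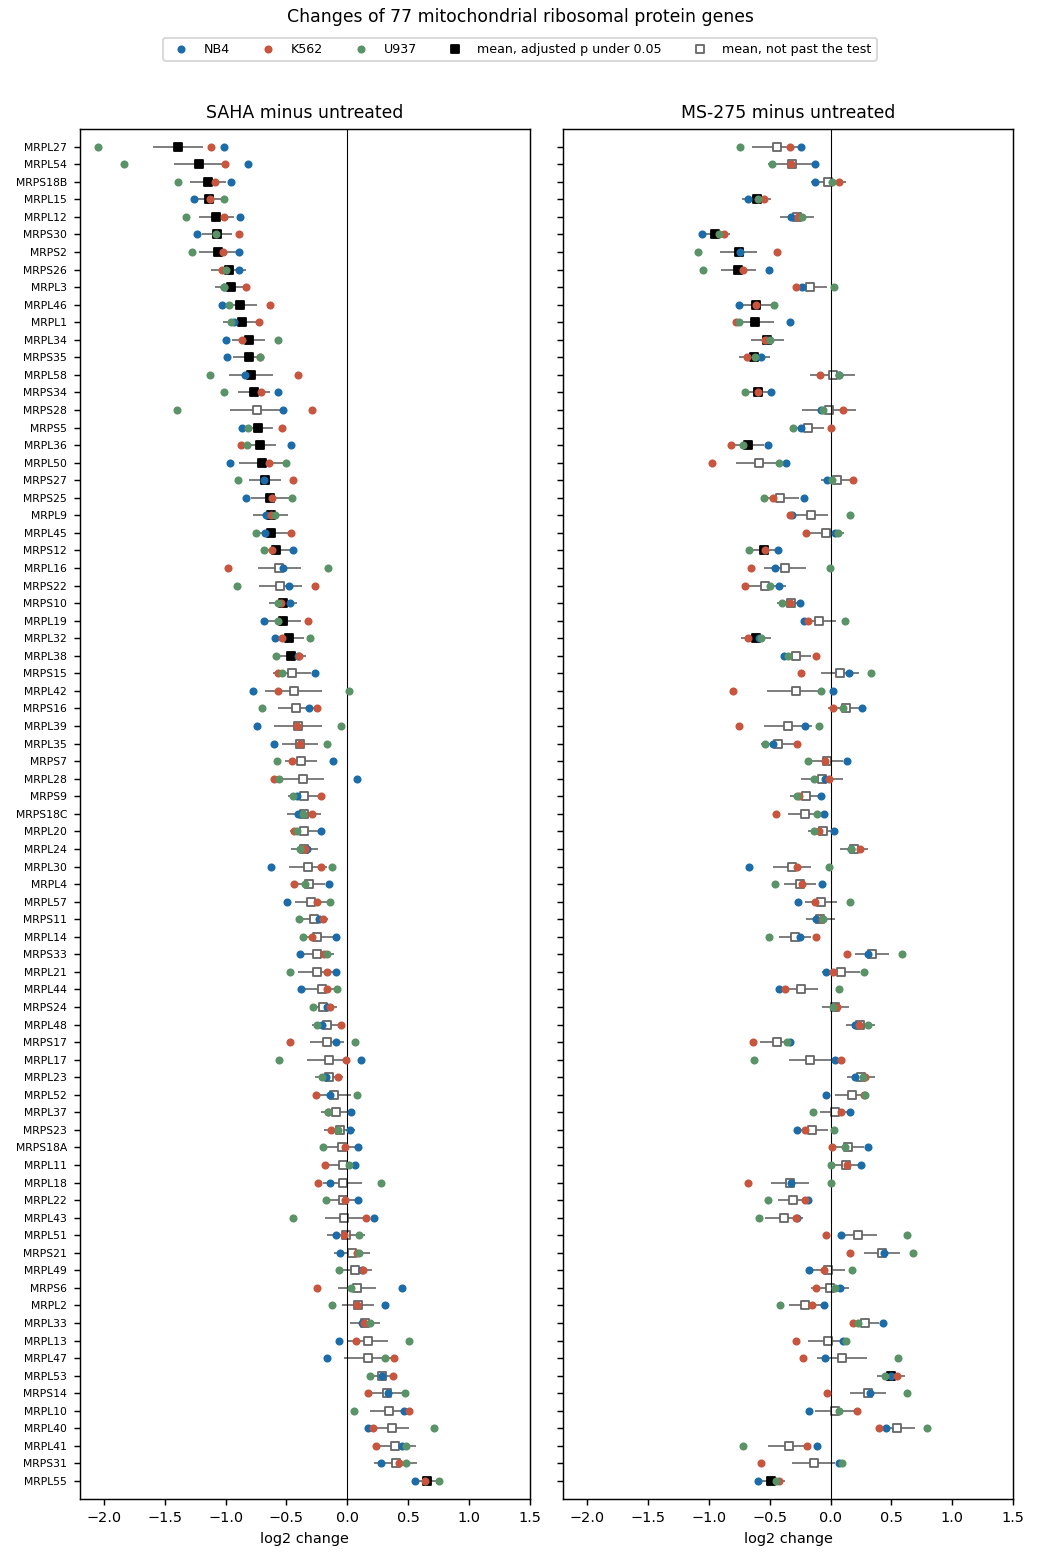
Log2 change of each of the 77 mitochondrial ribosomal protein genes with SAHA (left) and MS-275 (right) against untreated cells. Coloured points are single lines, squares are the mean over lines with its standard error as a bar, and filled squares passed the test. With SAHA 27 members fell and MRPL55 rose; with MS-275 13 fell and MRPL53 rose.

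The falls covered both subunits. Of the MRPL genes 16 of 49 fell with SAHA and of the MRPS genes 11 of 28, with medians of −0.31 and −0.44. Members with bacterial kin fell in 15 of 46 cases and mitochondria-specific members in 12 of 30, with medians of −0.36 and −0.35. Differences between these classes were not tested.

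Among large-subunit members with bacterial kin, MRPL27 changed most. It is the counterpart of bacterial L27, which sits by the peptidyl transferase centre. Its level was 11.27 in untreated NB4, 11.34 in K562 and 10.79 in U937, and 10.26, 10.22 and 8.74 with SAHA. All SAHA arrays were below all untreated arrays, with U937 the lowest. The fall was 1.39 ± 0.21 on the log2 scale (2.63-fold, adjusted p = 0.00436). MRPL15, a core protein of the large subunit, went from 13.07, 12.85 and 13.12 in NB4, K562 and U937 to 11.82, 11.72 and 12.10, again with no overlap. That change of −1.13 ± 0.12 had the lowest adjusted p of any member, 0.00178. MRPL12, relative of the bacterial stalk protein L7/L12 that recruits translation factors and also known to bind the mitochondrial RNA polymerase, was at 11.49, 10.43 and 10.84 untreated and at 10.60, 9.42 and 9.51 with SAHA. NB4 with SAHA remained above untreated K562, so the groups overlapped, but each line fell, by 0.88, 1.02 and 1.33. The fitted change was −1.08 ± 0.14 (adjusted p = 0.00314). MRPL3, which lies near the peptidyl transferase centre and whose mutations cause a cardiomyopathy, fell by 0.95 ± 0.14 (adjusted p = 0.00395). It was at 12.95, 12.15 and 12.46 untreated and at 11.94, 11.32 and 11.45 with SAHA, without overlap.

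Mitochondria-specific members of the large subunit moved as well. MRPL54 was at 11.40 in NB4, 11.89 in K562 and 12.03 in U937 and fell to 10.59, 10.88 and 10.19, a change of −1.22 ± 0.20 (adjusted p = 0.00665). U937 was the highest of the untreated arrays and the lowest of the SAHA arrays. MRPL46 fell by 0.88 ± 0.14 (adjusted p = 0.00591). MRPL58, a peptidyl-tRNA hydrolase that releases peptides from stalled ribosomes and became a ribosome component, fell by 0.79 ± 0.18 (adjusted p = 0.020). MRPL45, which anchors the ribosome at the inner membrane, fell by 0.63 ± 0.14 (adjusted p = 0.019), and its dimmer probe fell by 0.74 (adjusted p = 0.033).

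Small-subunit names include 4 of the 10 largest falls. MRPS18B was at 8.69, 9.46 and 8.92 in untreated NB4, K562 and U937 and at 7.74, 8.37 and 7.52 with SAHA, so the groups did not overlap. The change was −1.14 ± 0.15 (2.21-fold, adjusted p = 0.00285). Its paralogs, which like it descend from bacterial S18, were not past the test: MRPS18A had a log2 change of −0.04 (95% interval −0.34 to 0.26) and MRPS18C one of −0.36 (−0.69 to −0.03, adjusted p = 0.111). The difference between the paralogs was not tested. MRPS30, named for the small subunit but found in the large one in structures, went from 12.37, 11.42 and 10.94 to 11.13, 10.53 and 9.86. NB4 with SAHA remained above untreated U937, so the groups overlapped, but each line fell, giving −1.07 ± 0.12 (adjusted p = 0.00229). MRPS2, a core small-subunit protein, fell by 1.06 ± 0.16 (adjusted p = 0.00433). MRPS26 fell by 0.97 ± 0.14 (adjusted p = 0.00436). MRPS12, the decoding-centre protein whose bacterial counterpart is where streptomycin resistance mutations arise, fell by 0.58 ± 0.12 (adjusted p = 0.0134).

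**Figure D2:**
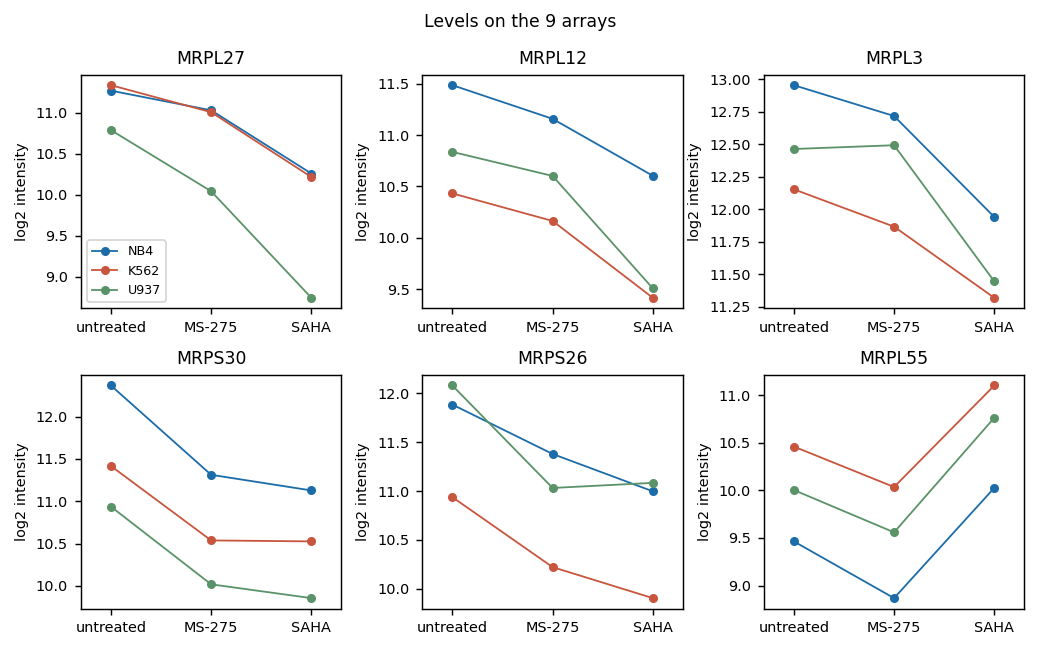
Log2 intensity of 6 members on the 9 arrays, by treatment, with 1 line per cell line and a scale of its own in each panel. MRPL27, MRPL12 and MRPL3 were lowest with SAHA in every line, MRPS30 was low with both inhibitors, and MRPL55 was high with SAHA and low with MS-275.

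MRPL55, a mitochondria-specific large-subunit protein, was the 1 member that rose with SAHA. It was at 9.46, 10.46 and 10.00 in untreated NB4, K562 and U937 and at 10.03, 11.10 and 10.76 with SAHA, so that the groups overlapped while each line rose, by 0.56, 0.64 and 0.76. The change was 0.65 ± 0.12 (1.57-fold, adjusted p = 0.00829). With MS-275 it fell, to 8.87, 10.03 and 9.56, by 0.49 ± 0.12 (adjusted p = 0.0402). A second, dim probe of MRPL55, detected on 6 of 9 arrays, changed by 0.51 with SAHA (adjusted p = 0.0495) and by 0.02 with MS-275 (adjusted p = 0.959). The next highest values with SAHA, not past the test, belonged to MRPS31 (0.40, 95% interval −0.02 to 0.82), MRPL41 (0.39, −0.02 to 0.80) and MRPL40 (0.36, 0.02 to 0.71).

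With MS-275 fewer members passed the test. Of the 77, 13 fell (16.9%) and 1 rose, where 7.5% of all genes fell and 4.34% rose. The members' median was −0.17, against −0.02 for all genes. In all 3 lines 36 members were lower and 12 higher, where 29.8% and 24.4% of all genes were. The medians by line were −0.13 in NB4, −0.21 in K562 and −0.08 in U937. All MS-275 arrays lay below all untreated arrays for 8 members and above them for 2, where 7.29% and 3.19% of all genes did. Among genes detected on every array 13 members fell (16.9%) beside 13.4% of genes, a share near that of all such genes. The count also depended on scaling and lines: scaling the arrays to equal medians gave 29 falls, where 16.4% of genes fell. When any 1 line was left out 0 members fell. In those fits 0% of all genes fell without NB4, 0.93% without K562 and 0% without U937.

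Members that fell with MS-275 fell by 1.40- to 1.93-fold (adjusted p from 0.0100 to 0.0487). MRPS30 was first, at 11.31, 10.54 and 10.02 in NB4, K562 and U937 against the untreated values above. Each line was lower by 0.88 to 1.05, and the change was −0.95 ± 0.12 (adjusted p = 0.0100). MRPS2 was at 9.77, 9.93 and 9.77 untreated and at 9.03, 9.49 and 8.68 with MS-275, without overlap (−0.76 ± 0.16, adjusted p = 0.0281). It was at 8.88, 8.91 and 8.49 with SAHA. MRPS26 was at 11.89, 10.94 and 12.08 untreated, 11.38, 10.22 and 11.03 with MS-275, and 11.00, 9.90 and 11.08 with SAHA. K562 was lowest throughout, and MS-275 changed MRPS26 by −0.76 ± 0.14 (adjusted p = 0.0223). MRPL36, counterpart of a small zinc-binding bacterial protein, fell by 0.68 ± 0.13 (adjusted p = 0.0234). MRPL15 fell by 0.61 ± 0.12 and MRPL46 by 0.61 ± 0.14 (adjusted p = 0.0239 and 0.0376). The remaining falls of 0.52 to 0.63 were those of MRPS35, MRPL1, MRPL32, MRPS34, MRPS12 and MRPL34, beside that of MRPL55.

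MRPL53 was the member that rose with MS-275. Its level was 9.95 in NB4, 10.01 in K562 and 9.71 in U937 without inhibitor and 10.45, 10.55 and 10.16 with MS-275, with all treated arrays above all untreated ones. The change was 0.50 ± 0.11 (adjusted p = 0.0364), and with arrays scaled to equal medians it was not past the test. MRPL40 had a larger value, 0.55 ± 0.15, with an adjusted p of 0.0532. MRPS21, a counterpart of bacterial S21, had 0.43 and was not past the test either. Its second, dimmer probe had −0.01 with MS-275 (adjusted p = 0.960).

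Probes of the same gene did not always move together. Of 12 members with several probes, 14 further probes passed the detection filter, 8 of which had the sign of the brightest probe with SAHA and 9 with MS-275. MRPS33 had values of −0.25 with SAHA and 0.34 with MS-275 on its brightest probe, neither past the test, while its second probe rose by 0.75 (adjusted p = 0.022) and 0.91 (adjusted p = 0.025). The second MRPS12 probe fell by 0.65 with SAHA (adjusted p = 0.026) and by 1.46 with MS-275 (adjusted p = 0.007), the latter a larger change than that of the brightest probe.

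SAHA and MS-275 were compared with each other at the same dose and time, by the contrast of their arrays within lines. Of the 77 members 16 were lower with SAHA and 2 were higher, where 10.2% of all genes were lower and 13.4% higher, and the members' median difference was −0.19. MRPS18B differed most among the lower ones. It was at 8.57, 9.53 and 8.93 with MS-275, a change from untreated of −0.02 (95% interval −0.36 to 0.33), and the difference of SAHA from MS-275 was −1.13 ± 0.15 (2.18-fold, adjusted p = 0.00359). MRPL27 followed with −0.95 ± 0.21 (adjusted p = 0.0173), and its MS-275 levels of 11.03, 11.01 and 10.04 lay between the others in each line. MRPL54 differed by −0.91 ± 0.20 (adjusted p = 0.0199), MRPL58 by −0.81 ± 0.18 (adjusted p = 0.020), MRPL12 by −0.80 ± 0.14 (adjusted p = 0.00906) and MRPL3 by −0.79 ± 0.14 (adjusted p = 0.00829).

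MRPL55 and MRPL41 were higher with SAHA than with MS-275. MRPL55 differed by 1.14 ± 0.12 (2.21-fold, adjusted p = 0.00224), by 1.16 in NB4, 1.07 in K562 and 1.20 in U937. MRPL41, a large-subunit protein also described as binding BCL2, was at 11.61, 11.48 and 10.18 with MS-275 and 12.18, 11.91 and 11.39 with SAHA, a difference of 0.73 ± 0.17 (adjusted p = 0.024), largest in U937. For members that fell with both inhibitors the test of the difference often missed the threshold, which does not show equal effects. The intervals of SAHA minus MS-275 were −0.41 to 0.17 for MRPS30, −0.55 to 0.12 for MRPS26, −0.35 to 0.27 for MRPL36 and −0.32 to 0.25 for MRPS12. With 1 line left out the count of differing members was 7 where K562 was dropped, 3 where NB4 was and 1 where U937 was. The share over all genes in those fits is not given here. With arrays scaled to equal medians 11 members were lower and 3 higher, where 881 and 1617 of 11228 genes were.

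**Figure D3:**
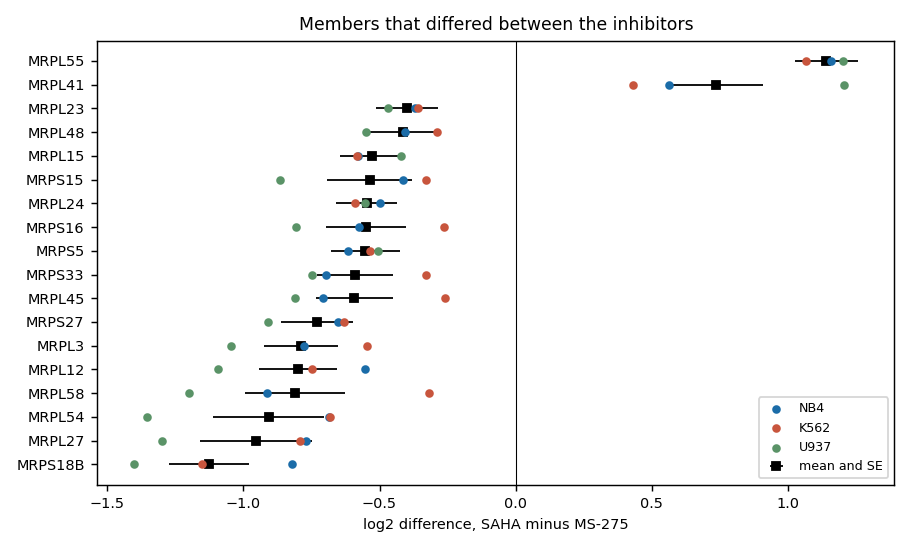
Log2 difference of SAHA from MS-275 for the 18 members past the test. Points are lines, and squares with bars are means with standard errors. 16 members lay below 0, with MRPS18B at −1.13, and MRPL55 and MRPL41 lay above.

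The untreated arrays are shared by both comparisons with untreated cells, so their members are given side by side and no agreement between the inhibitors is drawn from them. The median over members of the level on each array was 11.21 untreated, 11.00 with MS-275 and 10.70 with SAHA in NB4. In K562 it was 11.22, 10.99 and 10.67, and in U937 it was 10.85, 10.77 and 10.43. The order of the treatments was the same in each line.

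Whether the response to treatment differed between lines was tested by letting the treated-minus-untreated difference vary by line. In limma's F test of that interaction 0 members passed, and 0% of all genes did. At an unadjusted p under 0.05 there were 0 members and 171 of 11228 genes, and the lowest unadjusted p of a member was 0.176. This test pools SAHA and MS-275 as treated, so the difference between the inhibitors is part of its 3 residual degrees of freedom. With 1 array per line and treatment, a line difference in the response to SAHA alone, such as the MRPL27 falls of 2.05 in U937, 1.01 in NB4 and 1.12 in K562, was not tested.

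The lines themselves differed in many members, with the 3 treatments standing in for replicates. By limma's F test 53 of 77 members differed among lines (68.8%), close to the 69.7% of all genes. Between K562 and NB4 15 members were higher and 19 lower in K562, where 24.2% and 26.2% of all genes were. U937 had 11 higher and 29 lower than NB4 (21.3% and 23.5% of all genes) and 11 higher and 32 lower than K562 (25.8% and 27.7%). The mean over treatments was lowest in U937 for 45 members, in NB4 for 16 and in K562 for 16. This order depended on the scaling: with arrays scaled to equal medians it was lowest in U937 for 35, in K562 for 28 and in NB4 for 14. Under that scaling 9 members were higher and 20 lower in K562 than in NB4, where 2320 and 3322 of 11228 genes were. In U937 13 members were higher and 21 lower than in K562, where 3360 and 2549 genes were.

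MRPL4, a protein of the large subunit's exit tunnel by its bacterial kin, was at 9.94 to 10.09 on the NB4 arrays, 7.35 to 7.79 in K562 and 7.81 to 8.26 in U937. NB4 stood apart, 2.45 ± 0.13 above K562 on the log2 scale (5.47-fold, adjusted p = 8.2e-06) and 2.02 ± 0.13 above U937. MRPL40 was highest in K562, at 12.47 to 12.86 against 10.53 to 10.98 in NB4 and 9.99 to 10.78 in U937. The K562 mean exceeded that of NB4 by 1.93 ± 0.15 and that of U937 by 2.18 ± 0.15. MRPL11, which forms the base of the stalk, was at 11.88 to 12.14 in NB4, 11.32 to 11.64 in K562 and 9.90 to 9.92 in U937. On its brightest probe U937 was the low line, by 2.08 ± 0.13 against NB4. MRPS10 had the opposite order, from 10.71 to 11.17 in NB4 through 11.48 to 12.02 in K562 to 12.12 to 12.68 in U937, with U937 1.43 ± 0.11 above NB4. The MRPL36 arrays were at 12.92 to 13.43 in NB4, and its mean was 1.33 ± 0.13 lower in K562 and 1.49 ± 0.13 lower in U937. MRPL57 was lowest in K562, at 5.64 to 5.89, against 7.10 to 7.60 in NB4 and 6.87 to 7.18 in U937. Its K562 levels were close to those called near background above, though its probe was detected on 9 arrays. A second, dimmer probe of MRPL11 was at 6.14 to 6.60 in NB4 and at 6.18 to 6.60 in U937, so it did not show the difference. The second probe of MRPL4, detected on 5 arrays, was highest in NB4 (5.89 to 7.39).

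**Figure D4:**
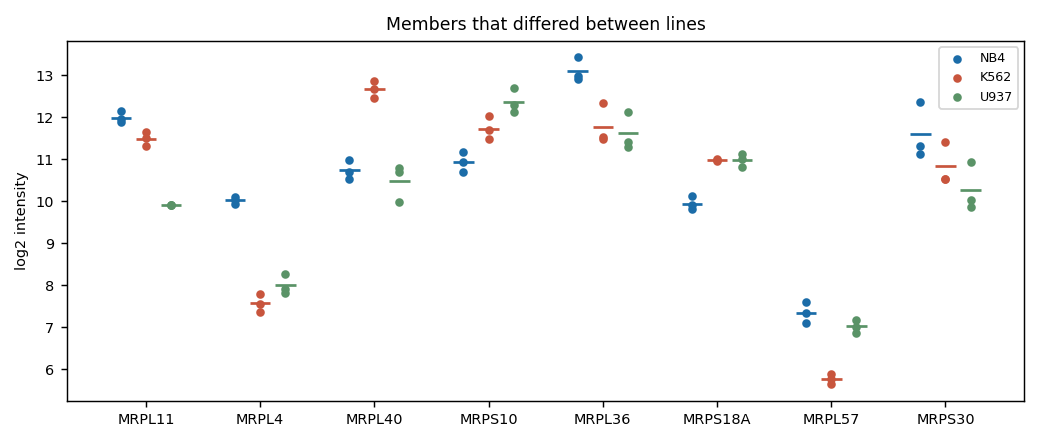
Log2 intensity of 8 members that differed between lines. Points are the 3 treatments and bars their mean. MRPL4 and MRPL36 were highest in NB4, MRPL40 in K562 and MRPS10 in U937.

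Genes of related mitochondrial functions gave a frame for these changes. The 63 tested genes of cytosolic ribosomal proteins, the nuclear-encoded proteins of the other ribosome, had 2 falls and 2 rises with SAHA (median 0.03) and 0 falls and 2 rises with MS-275 (median 0.06). The 73 tested subunits of the respiratory chain and ATP synthase had 3 falls and 3 rises with SAHA (median 0.05) and 0 falls and 3 rises with MS-275 (median 0.10). With arrays scaled to equal medians these 4 medians turned to −0.08, −0.05, −0.09 and −0.01, in that order. Many of these probes were near the top of the arrays' scale: 36 of the 63 and 28 of the 73 had a mean within 2 log2 units of its upper end (14.98), against 0 of the 77 members. The part of signal saturation in the difference between the lists was not tested. The 4 mitoribosome subunits tested under other names, DAP3, PTCD3, CHCHD1 and GADD45GIP1, had 0 calls with either inhibitor in limma's test, with 2 at an unadjusted p under 0.05 with SAHA and 1 with MS-275, and 0 calls with SAHA and 1 fall with MS-275 when arrays were scaled to equal medians.

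Genes that build and serve the ribosome also changed, and their counts stand beside the 11.8% of all genes that fell with SAHA and the 7.5% that fell with MS-275. Of 23 genes of mitoribosome assembly and ribosomal RNA modification 9 fell and 2 rose with SAHA (median −0.38), and 6 fell and 1 rose with MS-275 (median −0.50). With arrays scaled to equal medians 14 fell and 0 rose with MS-275, where 16.4% of all genes fell. NSUN4, a methyltransferase of the small-subunit RNA with a role in joining the subunits, fell by 1.49 ± 0.12 with SAHA (adjusted p = 0.00131). FASTKD2, an RNA-binding protein needed for the large-subunit RNA, fell by 1.41 ± 0.15 with SAHA and by 1.36 ± 0.15 with MS-275 (adjusted p = 0.00175 and 0.00665). The helicase DDX28 fell by 1.06 and 1.07. MPV17L2, an inner-membrane protein of ribosome assembly, rose by 1.23 ± 0.13 with SAHA (adjusted p = 0.00196) and fell by 0.52 with MS-275 (adjusted p = 0.049).

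Of 15 translation factors 5 fell with SAHA (33.3%, median −0.21) and 3 with MS-275 (20%, median −0.20), and 0 rose. With arrays scaled to equal medians the count with MS-275 was 5, where 16.4% of all genes fell. Initiation factor MTIF2 had the largest fall with SAHA (1.01 ± 0.22, adjusted p = 0.0173) and elongation factor GFM1 the largest with MS-275 (0.96 ± 0.15, adjusted p = 0.0133). Of 14 genes of mitochondrial DNA transcription and RNA processing 7 fell with SAHA (50%, median −0.40) and 8 with MS-275 (57.1%, median −0.68). The poly(A) polymerase MTPAP fell by 1.23 with SAHA and the RNA helicase SUPV3L1 by 1.26 with MS-275. Of 13 genes of protein import and chaperones 3 fell with SAHA (23.1%, median −0.19) and 5 with MS-275 (38.5%, median −0.45), among them the outer-membrane channel TOMM40 (−0.97 and −0.86).

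Nuclear regulators of mitochondrial genes had medians of −0.87 with SAHA and −0.77 with MS-275. Of the 8, 6 fell with SAHA and 4 with MS-275, where 11.8% and 7.5% of all genes did. With arrays scaled to equal medians 5 fell with MS-275, where 16.4% of all genes did. Of these 8 genes, 6 had a probe detected on all 9 arrays. PPRC1, a coactivator of the PGC-1 family, fell by 2.09 ± 0.17 with SAHA (adjusted p = 0.00131) and by 1.11 ± 0.17 with MS-275 (adjusted p = 0.0127). GABPA and GABPB1, the subunits of the ETS-family factor named above, fell by 1.72 ± 0.25 and 1.38 ± 0.19 with SAHA (adjusted p = 0.00426 and 0.00345). With MS-275 GABPB1 fell by 0.96 ± 0.19, and GABPA had a value of −0.84 that did not pass the test. YY1 fell by 0.56 with SAHA and 0.71 with MS-275 (adjusted p = 0.0248 and 0.0235). NRF1 did not pass the test, with −0.39 with SAHA and −0.50 with MS-275 (adjusted p = 0.314 and 0.228).

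**Figure D5:**
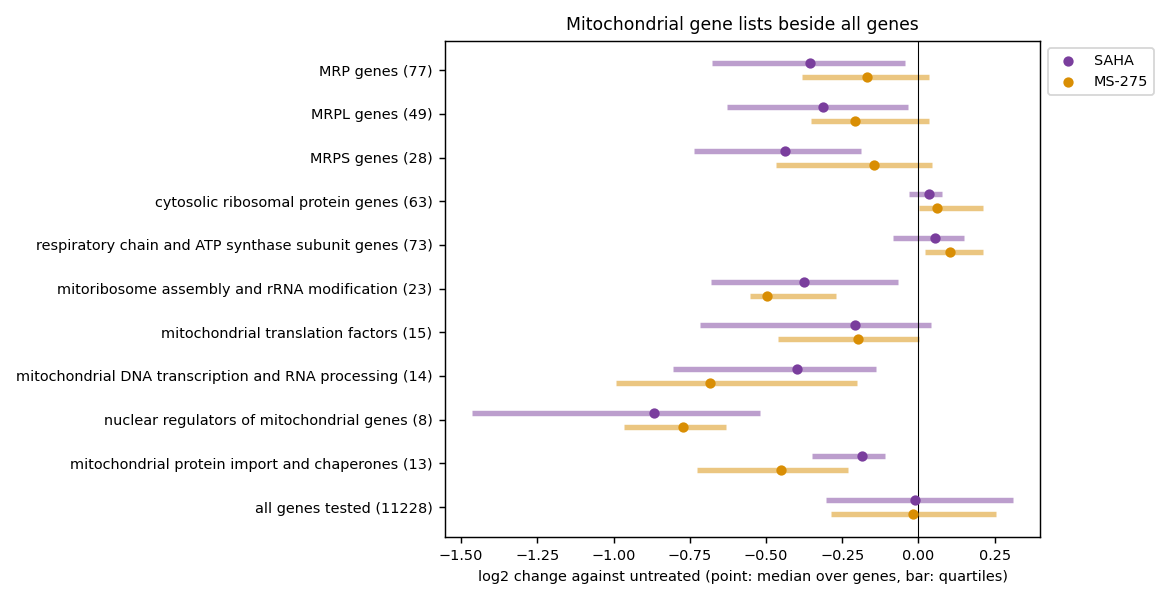
Median log2 change (point) and quartiles (bar) of each gene list against untreated cells, with the number of genes tested in brackets. The mitochondrial ribosomal protein genes had medians of −0.36 with SAHA and −0.17 with MS-275, cytosolic ribosomal protein genes of 0.03 and 0.06, and all genes of −0.01 and −0.02.

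Members were also set against the promoter motifs. The YY1 letters stood in the windows of 8 of the 26 matched members that fell with SAHA and of 5 of the other 43, and the ETS letters in 9 of the 26 and 19 of the 43. The NRF1 letters stood in 2 and 4 and the E-box in 3 and 6 of the same groups. The 28 members with an ETS match had a median of −0.36 with SAHA and the 41 without one had −0.38. For YY1 the medians were −0.48 in the 13 members with a match and −0.35 in the 56 without. The 6 members with an NRF1 match had −0.25 and the other 63 had −0.36, and the 9 with an E-box had −0.25 and the other 60 had −0.37. With MS-275 the medians were −0.15 and −0.24 with and without the ETS match, and −0.30 and −0.16 with and without the YY1 match. They were −0.19 and −0.18 for NRF1 and −0.21 and −0.18 for the E-box. These are descriptions of the members with a window, and no difference was tested.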

How the data were processed

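RNA from 3 lines was measured on 9 Illumina arrays. The authors deposited bead intensities with a detection p-value for each deposited intensity, and the values show no normalization or background correction (array medians 104 to 139). They also deposited log2 values, which per the submitters' processing notes involved lumi and which equalled quantile-normalized log2 intensities to 0.001 at all 199593 entries. Probe genes came from the platform annotation.

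Intensities were corrected with limma 3.58.1 in R 4.3.3 (nec, offset 16), put on the log2 scale and quantile-normalized. Probes with a detection p under 0.05 on at least 3 of 9 arrays (13836) were kept, and each of 11228 genes took its brightest probe. limma fitted treatment and line (4 residual degrees of freedom), with two-sided p-values adjusted by Benjamini-Hochberg over all genes. The same fit was first run on simulated arrays. Their noise was independent and had the same spread in every gene, so that run does not vouch for the p-values given here. The pairing by line comes from the labels. With only the treatment means removed, arrays correlated at 0.86 to 0.93 within lines and at −0.70 to −0.17 between them. These residuals hold the line differences themselves, so they do not test the pairing. Slides and dates are not recorded, and a batch was not tested. Members and lists were chosen with earlier results of these data known. Named members past the test were the largest changes each way (up to 10 per inhibitor, 5 between inhibitors, 4 per pair of lines and 4 per related list), with members against the majority, members whose probes disagreed, and MRPL3, MRPL12, MRPS12 and the MRPS18 paralogs for their role. A few others are named to complete a count and were chosen after their values were seen. Alternatives to the scaling, background correction, filter, probe choice, variance prior and line block were run.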

Additional observations from a re-analysis of the deposited data

How the results depend on the processing

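All members past the test kept their sign under every alternative run, for each inhibitor and for the difference between them (28, 14 and 18 members). Much of this was fixed in advance. These members had the same sign in all 3 lines, so leaving out a line could not reverse it. Dropping the line block or changing the variance prior leaves the log2 change as it was. Members that fell with SAHA numbered 27 to 40 under the alternatives that kept all arrays and the line as a block. Under these alternatives 7.59 to 18.2% of all genes tested fell with SAHA. Members that fell with MS-275 numbered 13 to 15, where 4.73 to 13.4% of all genes tested did. The exception was 29 members, beside 16.4% of all genes, with arrays scaled to equal medians. That scaling moved the median of all genes to −0.09 with SAHA and −0.14 with MS-275, and relative to it the members' medians were −0.45 and −0.31, against −0.35 and −0.15. A fit with no replicate block leaves the line differences in the residual. In it 1 member fell and 0 rose with SAHA, 0 fell and 0 rose with MS-275, and 0 differed between inhibitors. Over all 11228 genes 61 fell and 41 rose with SAHA in that fit, and 0 fell and 2 rose with MS-275. The count that rose with SAHA was 2 with no detection filter or with every probe on its own, where 1213 of 16577 genes and 1562 of 13836 probes rose. The count that rose with MS-275 was 0 with equal medians, where 373 of 11228 genes rose. It was 2 with no background correction, an offset of 50, detection on all 9 arrays, every probe on its own, a trend and robust prior, or the deposited log2 values. In these 6 settings 494 to 567 genes or probes rose, of 7736 to 13836. With 1 line left out, the ranges were 10 to 18 falls and 0 to 0 rises with SAHA, 0 to 0 falls and 0 to 0 rises with MS-275, 1 to 7 members that differed between the inhibitors, and 29 to 36 that differed among lines. These fits use fewer arrays, and in them 4.29 to 7.43% of all genes fell with SAHA and 0 to 0.93% with MS-275. For the last 2 ranges the share over all genes is not given here. Signal limits the dim probes most: the second probe of MRPL55 was detected on 6 of 9 arrays.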
